A study of Homo sapiens with 35 samples.

Results

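The genes described here are 34 genes of the ATF4 and amino acid response, found among the 62696 rows of an RNA-seq count table from U-87 MG glioblastoma cells. They were chosen by gene symbol as known regulators, targets and amino acid genes of this response, and selected on earlier results from the same RNA-seq counts, in which several of them fell in *ETS1* knockdown (KD) cells. Their RNA values are therefore a description of these libraries and not a test of that choice. The filter on low counts kept 33 of the 34 among 16879 genes tested. *CBS*, which encodes cystathionine beta-synthase, lay between 0 and 0.114 CPM (counts divided by the library size after TMM scaling, in the usual CPM unit) in the 12 libraries and was not tested. ChIP-seq peaks at the promoters were not used to choose the genes.

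ATF4 is a transcription factor whose mRNA is translated more when the initiation factor eIF2 is phosphorylated, as happens when amino acids are scarce or misfolded proteins build up. It binds with C/EBP partners to the C/EBP-ATF response element (CARE) and raises genes for amino acid synthesis, amino acid uptake, tRNA charging and redox control. It also raises its own brakes, such as *TRIB3* and *ATF3*, and the death-linked factor CHOP, the product of *DDIT3*. In gliomas this response is known for coping with limited nutrients and low oxygen.

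The cells were U-87 MG, a long-established line from a human glioblastoma. RNA-seq was made in 4 groups of 3 libraries: control cells without TWEAK, control cells with TWEAK, *ETS1* KD cells with TWEAK and *NFKB2* KD cells with TWEAK. TWEAK is a TNF-family cytokine. It signals through non-canonical NF-κB, in which *NFKB2* gives rise to the transcription factor p52. TWEAK was given at 10 ng/ml for 48 h and replenished after 24 h, and cells were starved for 8 h in Optimem. For untreated cells only the starvation time was recorded here, so a difference in time in culture cannot be told apart from TWEAK. KD was by lentiviral CRISPR, and the labels do not name the guide of the RNA-seq and Pol II KD libraries. No sample was of KD cells without TWEAK, so a KD effect that needs TWEAK cannot be told apart from one that does not. ChIP-seq comprised 10 groups of 2 libraries, with antibodies against p52 (control cells without and with TWEAK, and *ETS1* KD cells of guide 1 and guide 2 with TWEAK), ETS1 (control cells without and with TWEAK) and RNA Pol II (control cells without and with TWEAK, and both KDs with TWEAK). The study calls its RNA-seq replicates biological but nothing says that they came from separate cultures, so p-values measure only the spread between these libraries, which may be technical. In bulk RNA, fewer cells of a type and less RNA per cell cannot be told apart.

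Total counts ran from 28384201 to 40192606 per RNA-seq library. *ETS1* lay between 71.9 and 87.6 CPM in TWEAK-treated control libraries and between 28.2 and 37.8 CPM in *ETS1* KD libraries. In untreated control libraries it lay between 41.3 and 45.1 CPM, nearer to the *ETS1* KD libraries. *NFKB2* lay between 235 and 346 CPM in TWEAK-treated control libraries, between 75.7 and 104.9 CPM in *NFKB2* KD libraries and between 49.55 and 66.6 CPM in untreated control libraries. Against TWEAK-treated control cells, both knockdowns were thus seen in RNA, with *ETS1* and *NFKB2* still expressed. Of the markers of the line, *VIM*, *CD44*, *FN1*, *SPARC* and *NES* were at 76.6 CPM or above in every library, and *CDKN2A* and *CDKN2B*, which the line lacks, had 0 counts. Of the markers of other cells, *PTPRC*, *RBFOX3* and *AQP4* were at most 0.0922 CPM, the astrocyte marker *GFAP* at most 0.365 CPM, and *EPCAM*, *PECAM1* and *MBP* between 0.705 and 2.05 CPM. *NFKB2* KD replicate 2 and untreated control replicate 3 stood apart, with 6.97% and 6.66% of genes over 2-fold from the mean of the other libraries of their group, against 1.93% to 5.75% in the other libraries.

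The promoters of several members hold the core of the CARE, TGATGNAA, which marks the kind of site that ATF4 and its partners read. Of the 34 members, 27 had an entry in the RefSeq promoter table of GRCh38.p14, which holds 250 bases before to 50 after each start. No entry was found for *PSPH*, *SHMT2*, *PYCR1*, *SLC7A11*, *NUPR1*, *GPT2* and *EIF4EBP1*. The core was found on either strand in 9 of these 27 genes (33.3%) and in 4.46% of all 27305 genes of the table. These 9 were *ASNS*, *ATF3*, *CEBPG*, *CHAC1*, *JDP2*, *SLC1A4*, *SLC1A5*, *SLC3A2* and *SLC7A1*. Members were chosen as known genes of this response, so the higher share is not independent of that choice. The core was in 4 of 10 members with an entry that were lowered in *ETS1* KD cells and in 5 of 17 others. The *ATF3* core counted here lies at chr1:212565216-212565223, before a start other than the MANE start. The cAMP response element TGACGTCA was found in 0 of the 27 members and in 2.25% of all genes, and the ETS core CCGGAAG in 4 members (*ASNS*, *DDIT3*, *TRIB3* and *XPOT*, 14.8%) and in 12.2% of all genes. A match is a run of letters and not a measured site. The sequences below show the CARE core in capitals for 3 members whose RNA was lower in *ETS1* KD cells and for *CEBPG*, whose RNA was not called, each read 5′ to 3′ on the strand of the gene. For *ATF3* the 250 bases before the MANE start are from hg38 (chr1:212608511-212608760, plus strand), since the Pol II peak lies at that start, and hold 2 cores, with first bases 203 and 21 bases before the start. The others are RefSeq sequences on GRCh38.p14, for *ASNS* chr7:97872449-97872496 (minus strand), for *CHAC1* chr15:40953242-40953289 (plus strand) and for *CEBPG* chr19:33374051-33374098 (plus strand).
ATF3: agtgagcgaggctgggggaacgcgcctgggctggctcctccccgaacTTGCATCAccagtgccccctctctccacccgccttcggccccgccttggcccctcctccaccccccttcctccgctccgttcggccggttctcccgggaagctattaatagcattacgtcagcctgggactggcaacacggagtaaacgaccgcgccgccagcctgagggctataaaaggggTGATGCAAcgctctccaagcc
ASNS: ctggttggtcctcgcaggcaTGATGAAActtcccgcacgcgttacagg
CHAC1: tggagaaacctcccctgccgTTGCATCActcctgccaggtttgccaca
CEBPG: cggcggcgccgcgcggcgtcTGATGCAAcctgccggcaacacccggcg

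In TWEAK-treated cells, 11 of the 33 tested members fell in *ETS1* KD cells against control cells and 0 rose. The stress regulators *ATF3*, *NUPR1* and *DDIT3* and the feedback gene *TRIB3* fell most, and *ATF4* itself fell less. In all 11, every *ETS1* KD library was also below every untreated control library, which held for 18% of all genes. Among all 16879 genes, 1.13% were lowered and 0.255% raised, at an adjusted p under 0.05 in the edgeR quasi-likelihood test. The median log2 fold change was −0.41 over the members and 0.01 over all genes, and 29 of the 33 members were below 0. By role, 4 of 8 regulators, 4 of 7 feedback, redox and mTORC1 genes, 2 of 10 tested amino acid synthesis and folate genes and 1 of 8 transport and tRNA export genes fell. At an unadjusted p under 0.05 in edgeR, 18 members passed, all 18 downward, where 12% of all genes passed in either direction. DESeq2 called 13 members lowered and 0 raised, and 2.51% of the genes it tested in either direction. The 3 markers of other cell types that could be tested, *EPCAM*, *PECAM1* and *MBP*, were also lower in *ETS1* KD cells, with a median log2 fold change of −0.57 and overlapping groups, and none was called. At most 2.05 CPM, they were scarce, and their part in the members' values was not tested.

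Among the regulators, *ATF4* (chr22:39519695-39522683) had 311, 290.3 and 265 CPM in the 3 TWEAK-treated control libraries and 208, 179 and 193 CPM in the *ETS1* KD libraries. The groups did not overlap, and *ATF4* fell by 0.58 ± 0.10 (SE) on the log2 scale, with an adjusted p of 0.0101. The call of *ATF4* was lost when TWEAK-treated control replicate 2, *ETS1* KD replicate 2 or *ETS1* KD replicate 3 was left out, with log2 fold changes from −0.64 to −0.52. Of the 10 other alternatives, 8 kept the call. *ATF3* (chr1:212565334-212620777), a repressor that ATF4 induces, had 70.5, 75.7 and 83.2 CPM in control libraries and 17.4, 14.9 and 14.5 CPM in *ETS1* KD libraries. It had the lowest log2 fold change of the members, −2.30 ± 0.16, with an adjusted p of 3.15e-05. *DDIT3* (chr12:57516588-57521737), which encodes CHOP, had 149, 119 and 117 CPM in control libraries and 40.1, 39.8 and 29.3 CPM in *ETS1* KD libraries. Its log2 fold change was −1.82 ± 0.18, with an adjusted p of 0.000235.

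*NUPR1* (chr16:28532708-28539008), a small stress-induced chromatin protein, had 26.6, 21.7 and 19.1 CPM in TWEAK-treated control libraries and 7.71, 5.61 and 4.55 CPM in *ETS1* KD libraries, and its log2 fold change was −1.91 ± 0.19. The other 4 regulators were not called. The log2 fold changes were −0.54 ± 0.13 for *JDP2*, a bZIP repressor, −0.45 ± 0.13 for *CEBPG*, a C/EBP partner of ATF4, −0.06 ± 0.11 for *ATF5* and −0.01 ± 0.12 for *CEBPB*. The libraries of *JDP2*, *CEBPG* and *ATF5* did not overlap between the groups, whereas those of *CEBPB* did.

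Several of the feedback, redox and mTORC1 genes fell together with these regulators. *TRIB3* (chr20:362835-397559), a pseudokinase that restrains ATF4 and AKT, had 42.1, 44.1 and 49.2 CPM in TWEAK-treated control libraries and 11.2, 13.5 and 10.4 CPM in *ETS1* KD libraries. *CHAC1* (chr15:40952962-40956512), which degrades glutathione, had 7.96, 8.71 and 8.72 CPM in control libraries and 3.02, 3.04 and 3.09 CPM in *ETS1* KD libraries. Their log2 fold changes were −1.95 ± 0.20 and −1.47 ± 0.15. *SESN2* (chr1:28259518-28282491), a leucine sensor that holds back mTORC1, had 110.1, 131 and 137 CPM in control libraries and 48.9, 49.0 and 48.8 CPM in *ETS1* KD libraries, with a log2 fold change of −1.37 ± 0.19. The 3 *ETS1* KD libraries were nearly level for *CHAC1* and *SESN2*, and all lay below each control library.

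*DDIT4* (chr10:72273919-72276036), an mTORC1 inhibitor induced by stress, had 122, 124 and 163 CPM in TWEAK-treated control libraries and 59.7, 46.8 and 50.2 CPM in *ETS1* KD libraries. Its log2 fold change was −1.39 ± 0.29, with an adjusted p of 0.0308, and the call was lost in each of the 6 fits that left out 1 library of either group, with values from −1.51 to −1.24. *STC2*, a secreted stress protein, was at −0.65 ± 0.23, *EIF4EBP1*, the translation repressor 4E-BP1, at −0.05 ± 0.12 and *VLDLR*, the VLDL receptor, at 0.33 ± 0.17, and none of these was called.

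Of the amino acid synthesis and folate genes, *CTH* and *ASNS* fell. *CTH* (chr1:70411218-70439851), which makes cysteine from cystathionine, had 26.2, 23.3 and 23.9 CPM in TWEAK-treated control libraries and 9.36, 11.6 and 9.67 CPM in *ETS1* KD libraries, with a log2 fold change of −1.26 ± 0.15. *ASNS* (chr7:97851677-97872542), asparagine synthetase, was low throughout, at 1.83, 2.34 and 2.86 CPM in control libraries and 0.821, 0.705 and 1.03 CPM in *ETS1* KD libraries. Its log2 fold change was −1.46 ± 0.31, with an adjusted p of 0.0371, and of the 6 fits that left out 1 library of either group only that without TWEAK-treated control replicate 1 kept the call, with values from −1.62 to −1.30. The serine pathway genes *PSAT1* and *PHGDH* were at −0.41 ± 0.12 and −0.29 ± 0.14, and *PSPH* at 0.08 ± 0.10. The mitochondrial folate genes *MTHFD2* and *SHMT2* were at −0.36 ± 0.10 and −0.14 ± 0.11, and the proline pathway genes *PYCR1* and *ALDH18A1* at −0.35 ± 0.20 and 0.06 ± 0.14. *GPT2*, the mitochondrial alanine aminotransferase, was at −0.10 ± 0.14. None of these 8 was called.

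Of the transport genes, *SLC3A2* (chr11:62856004-62888880), the heavy chain shared by several amino acid exchangers, had 359, 325 and 326 CPM in TWEAK-treated control libraries and 166, 172 and 149 CPM in *ETS1* KD libraries, with a log2 fold change of −1.05 ± 0.16. Its light chains were lower in every *ETS1* KD library than in any TWEAK-treated control library but were not called. *SLC7A11*, which imports cystine, was at −0.9998 ± 0.3753 with an adjusted p of 0.279, and *SLC7A5*, which imports leucine, at −0.59 ± 0.20 with an adjusted p of 0.208. The glutamine and small neutral transporters *SLC38A2*, *SLC1A5* and *SLC1A4* were at −0.24 ± 0.18, −0.16 ± 0.09 and −0.16 ± 0.12. The cationic amino acid transporter *SLC7A1* was at 0.07 ± 0.17 and the tRNA exporter *XPOT* at −0.19 ± 0.13.

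**Figure D1:**
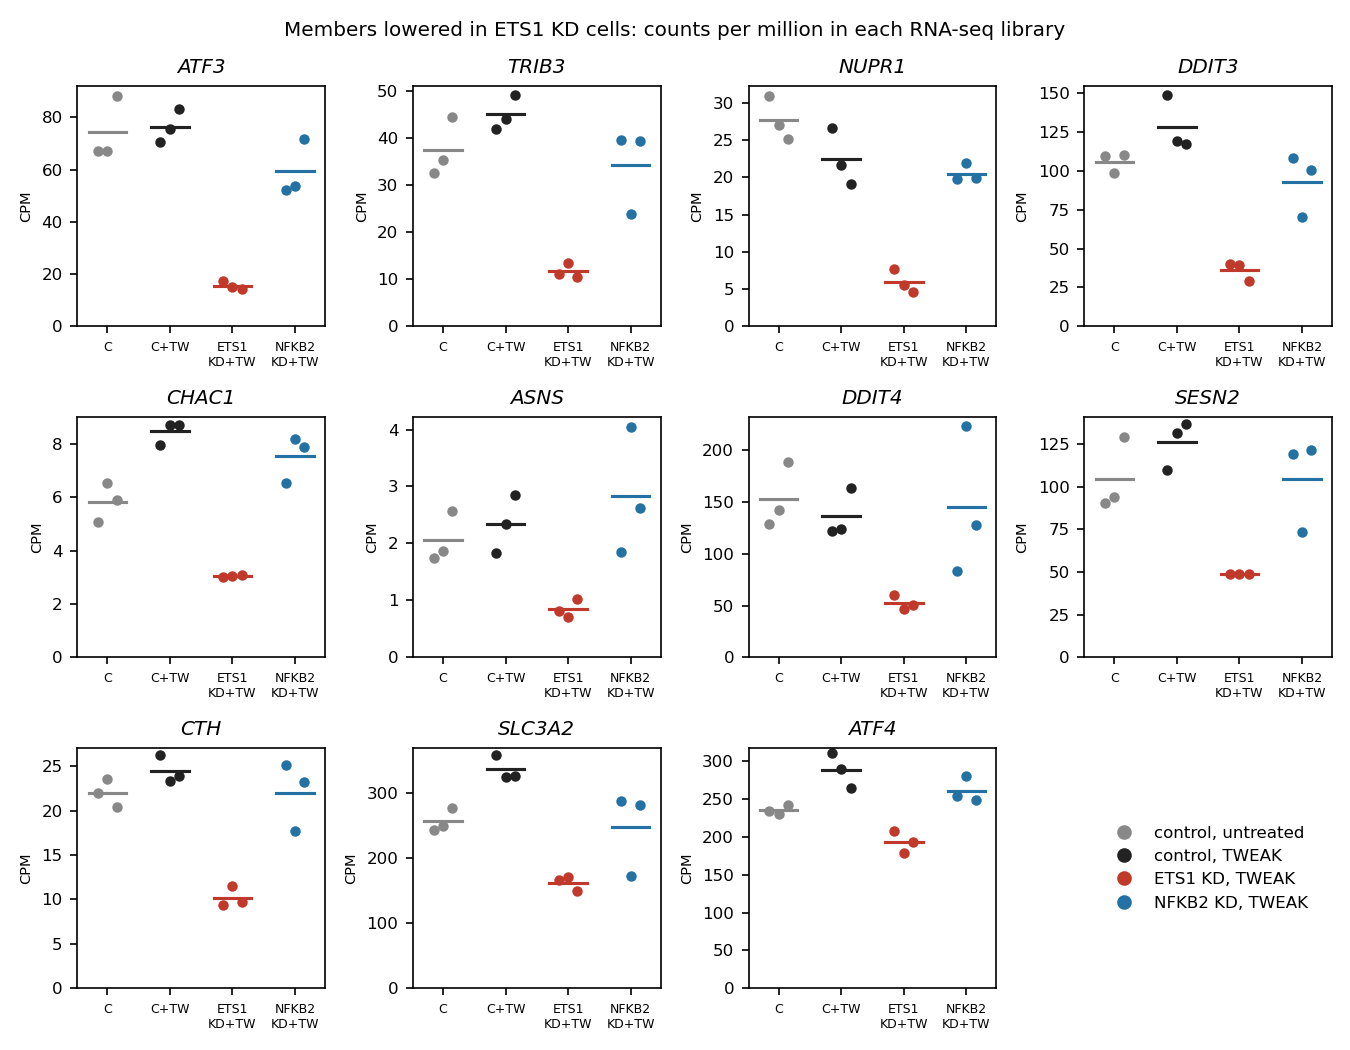
CPM (linear axis from 0, a panel per gene) of the 11 members lowered in *ETS1* KD cells, with a point for each of the 12 RNA-seq libraries and a bar at each group mean. In every panel the 3 *ETS1* KD libraries lie below the 3 TWEAK-treated and the 3 untreated control libraries.

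In 23 of the 33 tested members, every *ETS1* KD library lay below every TWEAK-treated control library, which held for 10.8% of all genes. Every *ETS1* KD library lay below every untreated control library in 17 of the 33 members, which held for 18% of all genes. The 11 lowered members were among both. *DDIT3*, for example, had 109.5, 98.4 and 110.2 CPM in untreated control libraries, above its 29.3 to 40.1 CPM in TWEAK-treated *ETS1* KD libraries.

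Against untreated control cells, TWEAK raised 0 and lowered 0 of the 33 members, where 1.55% of all genes were raised and 1.53% lowered by the edgeR quasi-likelihood test. At an unadjusted p under 0.05 in edgeR, 8 members passed, all 8 upward, where 14.7% of all genes passed in either direction. DESeq2 called 4 members raised and 0 lowered, and 5.25% of the genes it tested in either direction. These 4 were *CHAC1*, *SHMT2*, *SLC1A5* and *SLC7A5*. The median log2 fold change was 0.17 over the members and 0.02 over all genes. *SLC7A5* had 43.8, 48.8 and 68.9 CPM in untreated libraries and 69.4, 95.9 and 101.4 CPM in TWEAK-treated libraries, with a log2 fold change of 0.72 ± 0.20 and an adjusted p of 0.0733. The groups of *SLC7A5* did not overlap, though untreated replicate 3 came close to TWEAK-treated replicate 1, and the call was made when either of these was left out. *CHAC1* had 5.07, 6.52 and 5.88 CPM in untreated libraries, with a log2 fold change of 0.54 ± 0.14 and an adjusted p of 0.0621. *ATF4* had 235, 231 and 242 CPM in untreated libraries, with a log2 fold change of 0.29 ± 0.10 and an adjusted p of 0.163. Every TWEAK-treated control library lay above every untreated one in 12 of the 33 members, which held for 11% of all genes. Without both libraries that stood apart, 5 members and 477 of all genes were raised, the members being *SESN2*, *SLC1A5*, *SLC3A2*, *SLC7A5* and *STC2*.

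In *NFKB2* KD cells against TWEAK-treated control cells, 0 members were raised and 0 lowered, where 0.00592% of all genes were raised and 0.0237% lowered by the edgeR quasi-likelihood test. At an unadjusted p under 0.05 in edgeR, 4 members passed, none of them upward, where 3.91% of all genes passed in either direction. DESeq2 called 0 members, and 0.194% of the genes it tested. The median log2 fold change was −0.12 over the members and −0.02 over all genes. *DDIT3* had 108.5, 70.1 and 100.7 CPM in *NFKB2* KD libraries, with a log2 fold change of −0.46 ± 0.17, and *ATF3* had 52.4, 53.6 and 71.9 CPM, with −0.37 ± 0.15. *TRIB3* had 39.6, 23.9 and 39.5 CPM and *SLC7A11* 52.2, 16.5 and 59.0 CPM, so that replicate 2 was far below the other libraries, whereas *DDIT4*, at 83.6, 223 and 127.9 CPM, was highest in replicate 2. Every *NFKB2* KD library lay below every TWEAK-treated control library in 4 of the 33 members, which held for 3.82% of all genes. These 4 were *DDIT3*, *TRIB3*, *SLC3A2* and *SHMT2*. Without *NFKB2* KD replicate 2 and untreated replicate 3, 0 members were called in this comparison.

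The 3 comparisons above share the TWEAK-treated control libraries, so their values are set side by side and the knockdowns were compared directly. The direct comparison uses the same *ETS1* KD libraries whose values were known when the genes were chosen, so it is not independent of that choice. In *ETS1* KD cells against *NFKB2* KD cells, 10 of the 33 members were lowered and 0 raised, where 1.4% of all genes were lowered and 0.533% raised. These 10 were the lowered members named above other than *SLC3A2*, which was at −0.61 ± 0.16 with an adjusted p of 0.0813. The log2 differences ran from −1.93 ± 0.16 for *ATF3* to −0.43 ± 0.10 for *ATF4*, whose adjusted p was 0.0452 in edgeR, and the median over the members was −0.31 against 0.02 over all genes. At an unadjusted p under 0.05 in edgeR, 14 members passed, where 15.5% of all genes passed in either direction. DESeq2 called 11 members lowered and 0 raised, and 4.47% of the genes it tested in either direction. Without *ETS1* KD replicate 3 the lowered members numbered 6 and all lowered genes 59, with *ATF4*, *ASNS*, *DDIT4* and *SESN2* no longer called, and they numbered 12, of 263 lowered genes, without both libraries that stood apart. *ATF4* was not among those 12, and of the 6 fits that left out 1 library of either KD group it was called only in that without *NFKB2* KD replicate 1.

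**Figure D2:**
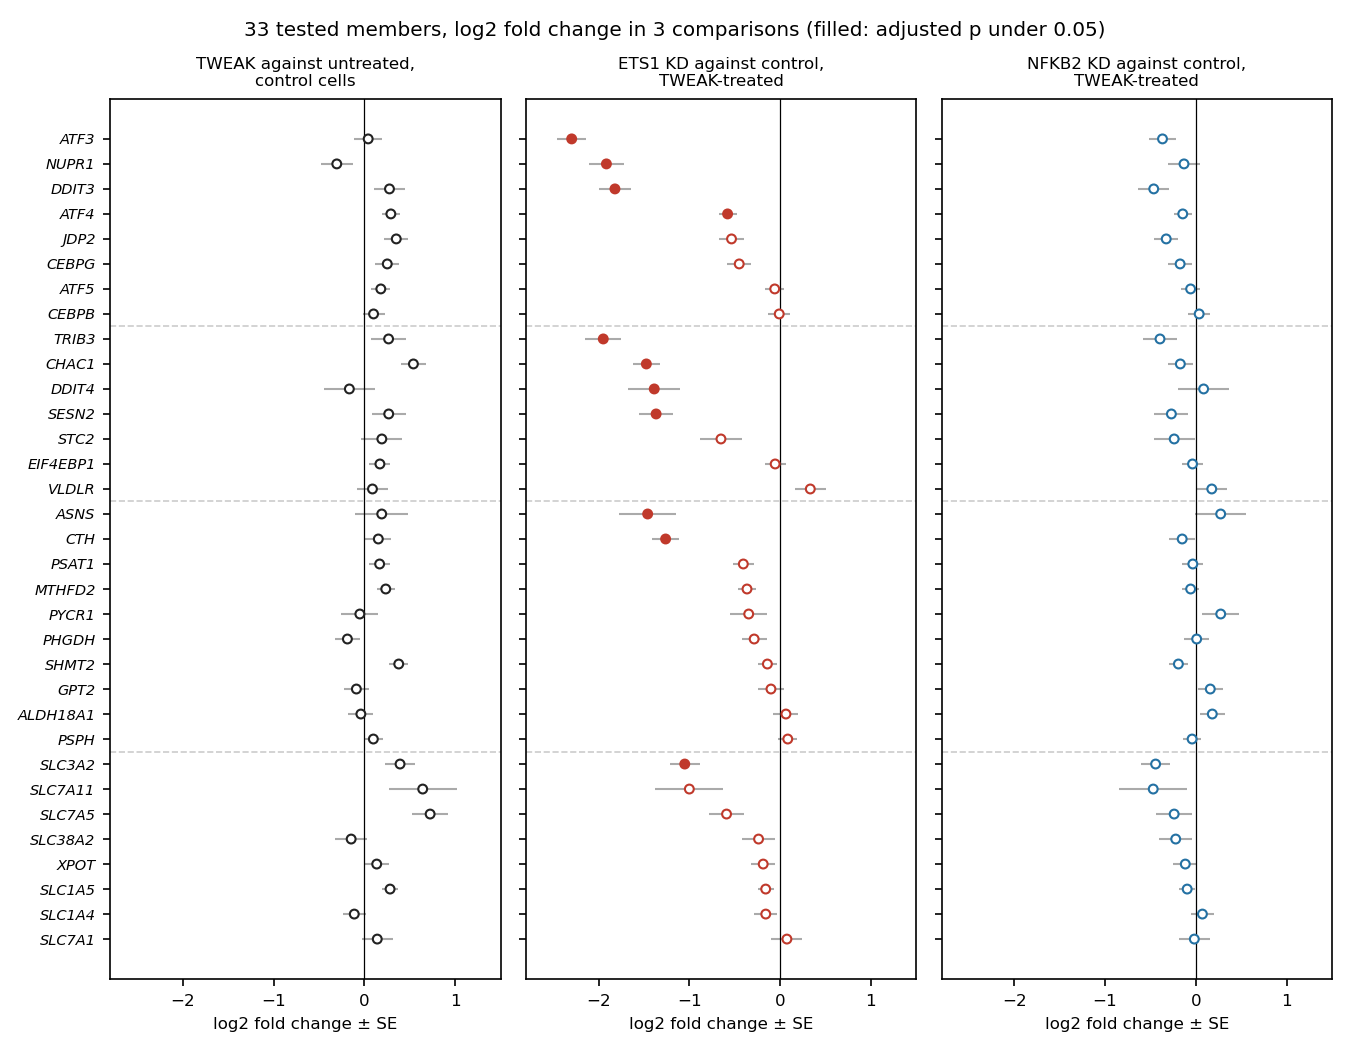
Log2 fold change (x axis, bars show the SE) of the 33 tested members in the TWEAK, *ETS1* KD and *NFKB2* KD comparisons, ordered by role from regulators (top) through feedback and amino acid synthesis genes to transport genes, with filled points at an adjusted p under 0.05. The 11 filled points are all in the *ETS1* KD panel, from *ATF3* at −2.30 to *ATF4* at −0.58.

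Other genes of the pathway were followed from 2 lists. These lists were also chosen with earlier results of these data known. Their RNA values therefore describe these libraries and are not independent of the members' result. Of 19 genes for the eIF2 kinases and eIF2 and its control, which act before ATF4, 0 were called in the *ETS1* KD comparison by edgeR, and their median log2 fold change was 0.01. *PPP1R15A*, which encodes GADD34, the stress-induced subunit that removes the eIF2 phosphate, had the lowest adjusted p of this list, 0.0929, at −0.80 ± 0.21, and is named here after its value was seen. Of 21 tested genes of 25 others linked to ATF4 or amino acids, 5 were lowered and 0 raised, against the 1.13% of all genes lowered. *GDF15*, a secreted stress hormone, had 50.7, 57.5 and 62.2 CPM in TWEAK-treated control libraries and 14.9, 15.6 and 15.1 CPM in *ETS1* KD libraries, with a log2 fold change of −1.90 ± 0.14. *ALDH1L2*, a mitochondrial folate enzyme, was at −1.42 ± 0.23, *KLHL24*, a ubiquitin ligase adaptor, at −0.82 ± 0.18 and *MAP1LC3B*, which encodes an autophagosome protein, at −0.56 ± 0.12. Against *NFKB2* KD cells, where 1.4% of all genes were lowered, 0 of the 19 and 3 of the 21 were lowered, the latter being *GDF15* at −1.92 ± 0.14, *ALDH1L2* at −1.28 ± 0.23 and *GABARAPL1*, a relative of *MAP1LC3B*, at −0.55 ± 0.10. TWEAK lowered *GLUL*, glutamine synthetase, by edgeR at −0.79 ± 0.19, and *NFKB2* KD moved 0 genes of either list past the threshold.

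Levels were compared between members as TPM, which divide the counts by exon length before scaling each library to the same total. In TWEAK-treated control cells *ATF4* was at 417 ± 18.4 TPM (SD, n = 3), *CEBPB* at 395 ± 49.2 TPM, *DDIT3* at 371 ± 38.7 TPM and *EIF4EBP1* at 356 ± 36.6 TPM, and neighbours in this order did not differ beyond their spread. *SLC1A5*, at 269 ± 10.3 TPM, came next. *ATF3*, at 72.6 ± 8.71 TPM, was in the middle of the members. *CHAC1* at 15.6 ± 1.31 TPM, *NUPR1* at 15.4 ± 2.06 TPM and *ASNS* at 1.82 ± 0.465 TPM were among the lowest, so that the lowered members spanned nearly the whole range of levels.

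ChIP-seq asks whether p52, ETS1 or Pol II was found at these promoters, here from 1000 bp upstream to 100 bp downstream of any annotated start. A member was counted where a site with a peak in both replicates overlapped its promoter. The authors' peak lists give fold enrichment over background at each summit, and the read depth is unknown. With 2 libraries per group no test was made.

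For p52, 0 of the 34 members had such a site in untreated control cells, where 0.0178% of the 16879 tested genes had it. In TWEAK-treated control cells 2 members had it, *DDIT3* and *SESN2*, and 4.21% of all genes. In *ETS1* KD cells with TWEAK, 0 members and 1.68% of all genes had it with guide 1, and 3 members (*DDIT3*, *SESN2* and *CEBPG*) and 4.11% of all genes with guide 2. At *DDIT3* the p52 fold enrichment was 7.26 and 21.0 in the TWEAK-treated control libraries, 12.3 in guide 1 replicate 2, with no peak in replicate 1, and 10.2 and 8.05 with guide 2. At *SESN2* it was 5.31 and 11.98 in the control libraries, 10.5 in guide 1 replicate 2 and 8.99 and 5.80 with guide 2. At *CEBPG* it was 16.3 in control replicate 2 with no peak in replicate 1, 10.1 in guide 1 replicate 2 and 7.89 and 12.5 with guide 2. Guide 1 replicate 1 had the shortest list with TWEAK, 1387 peaks, against 3579 to 11761 in the other 5, so absence there cannot be told apart from the smaller list.

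The p52 peak of *DDIT3* in TWEAK-treated control replicate 2 covered chr12:57519949-57520485 of hg38, with its summit 219 bp downstream of the MANE start, in the first intron. In replicate 1 it covered chr12:57520148-57520417, with the summit 229 bp downstream. The peaks overlap the window around the MANE start only with their edge, and with at least 50% of the peak required inside it, 1 member remained. The 101 bases around the replicate 2 summit (chr12:57520245-57520345, plus strand) hold a match, in capitals, to the κB consensus in a form that takes A or T at the sixth base. At *SESN2* the summits lay at −510 and −526 bp from the start, and the 101 bases around the replicate 2 summit (chr1:28258942-28259042, plus strand) hold no match to this form and 1 match to a looser form, searched after seeing the data, that takes any base there. Of all p52 summits on chromosomes 1 and 12, 57.1% of 1712 in replicate 2 and 46.5% of 592 in replicate 1 had a match to the stricter form in a window of the same length, and 59.1% and 48.1% to the looser form. In the RefSeq promoters the stricter form was found in 2 of the 27 members, *SESN2* and *CBS* (7.41%), and in 7.09% of all genes.
DDIT3 p52 summit: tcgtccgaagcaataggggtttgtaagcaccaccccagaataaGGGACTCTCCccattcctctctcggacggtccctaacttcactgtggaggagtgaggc
SESN2 p52 summit: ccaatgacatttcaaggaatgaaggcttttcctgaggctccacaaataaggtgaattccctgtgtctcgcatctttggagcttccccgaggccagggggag

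For ETS1, 5 of the 34 members had a promoter site in untreated control cells, where 5.37% of all genes had it, and 4 in TWEAK-treated control cells, where 7.48% of all genes had it. *PHGDH*, *SLC1A4*, *STC2* and *VLDLR* had it in both conditions, and *ALDH18A1* without TWEAK only, with a peak in 1 of the 2 TWEAK-treated libraries. The fold enrichment at *VLDLR* was 9.32 and 7.18 without TWEAK and 6.66 and 7.54 with TWEAK, and at *PHGDH* 4.72 and 4.50 without and 5.58 and 6.46 with TWEAK. None of the 11 members lowered in *ETS1* KD cells had an ETS1 promoter site in both replicates of either condition. *ATF4* had a peak in TWEAK-treated replicate 2 alone, at 4.88-fold, and *SLC3A2* in untreated replicate 1 alone, at 4.30-fold. For these 11, the nearest ETS1 site of TWEAK-treated cells lay between 39562 bp (*SLC3A2*) and 5263001 bp (*CTH*) from the MANE start. For the other members it lay between 152 bp (*STC2*) and 3754674 bp (*SLC7A1*), so the ranges overlapped. Such distances were not computed for all genes.

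**Figure D3:**
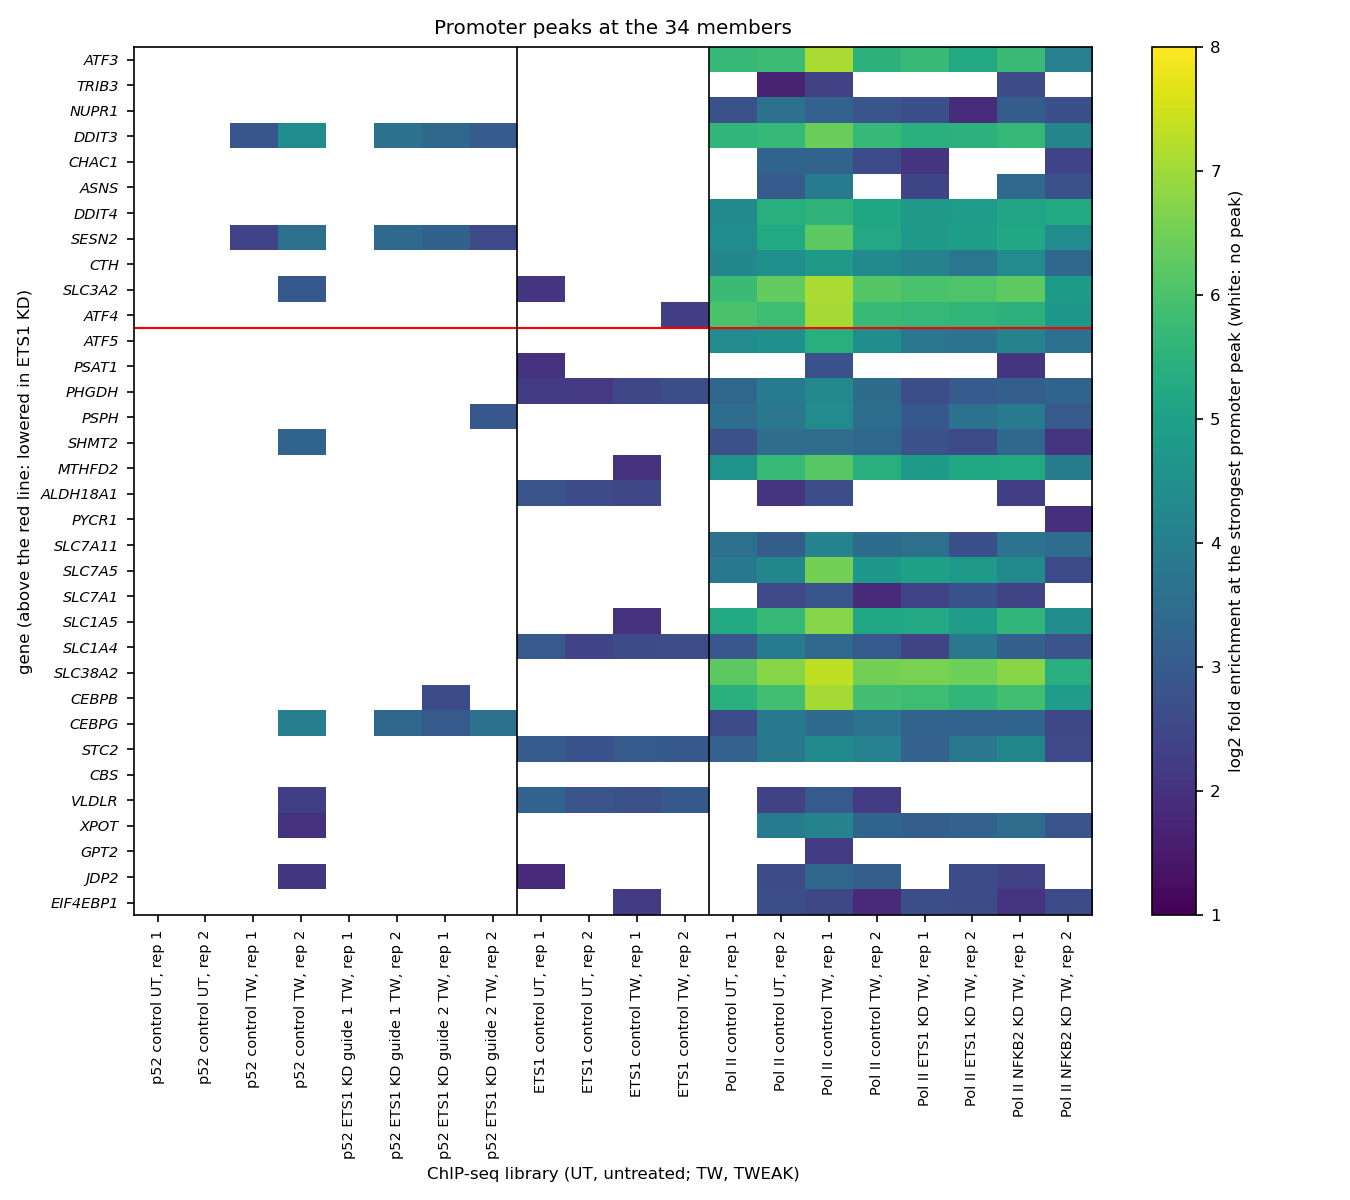
Log2 fold enrichment (colour) at the strongest promoter peak of the 34 members (rows) in the 20 ChIP-seq libraries (columns), with white for no peak and a red line under the 11 members lowered in *ETS1* KD cells. Above the line the p52 peaks are at *DDIT3*, *SESN2* and, in 1 library, *SLC3A2*, the ETS1 columns hold 2 single peaks, and most Pol II columns are filled.

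For Pol II, 21 members had a promoter site in untreated control cells and 27 in TWEAK-treated control cells, where 45.9% and 57.2% of all genes had it. With TWEAK, the *ETS1* KD group had it at 24 members and the *NFKB2* KD group at 24, where 48.5% and 43.1% of all genes had it. Of the 11 members lowered in *ETS1* KD cells, *ATF4*, *ATF3*, *DDIT3*, *SESN2*, *DDIT4*, *SLC3A2*, *NUPR1* and *CTH* had a Pol II site in all 4 conditions. *CHAC1* had it in TWEAK-treated control cells and *ASNS* in *NFKB2* KD cells, and *TRIB3* in none of them. The Pol II lists held between 11175 peaks, in *NFKB2* KD replicate 2, and 44672 peaks, in TWEAK-treated control replicate 1, which also had the highest enrichment at most members.

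At *ATF3* the Pol II fold enrichment was 51.6 and 55.8 in untreated control libraries, 138 and 45.9 in TWEAK-treated control libraries, 52.5 and 38.4 in *ETS1* KD libraries and 54.3 and 16.6 in *NFKB2* KD libraries, with summits 39 to 78 bp downstream of the MANE start in control and *ETS1* KD libraries. At *DDIT3* it was 48.9 and 50.3, 85.9 and 51.4, 43.5 and 45.1, and 50.3 and 18.2 in the same order. The *ETS1* KD and TWEAK-treated control libraries overlapped at *ATF3* and did not at *DDIT3*. Since libraries differed in depth and background, the log2 enrichment of each library was centred on its median over the 5497 genes with a promoter peak in all 8 libraries, 21 of them members.

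On the centred scale, the 8 lowered members with a Pol II peak in all 8 libraries differed between *ETS1* KD and TWEAK-treated control cells by −0.37 for *SESN2*, −0.29 for *ATF3*, −0.23 for *ATF4*, −0.20 for *NUPR1*, −0.11 for *CTH*, −0.07 for *SLC3A2*, −0.05 for *DDIT3* and 0.02 for *DDIT4*. Their median was −0.15, against −0.20 over the 21 members and −0.03 over all 5497 genes. Both *ETS1* KD libraries lay below both TWEAK-treated control libraries at 4 of the 21 members (*ATF5*, *PHGDH*, *SHMT2* and *SESN2*), which held for 19.4% of all genes, and above them at 0 members, which held for 18.6%. The share of members below was near that of all genes. At *PHGDH* the strongest peaks compared lay at different starts, with summits at −63426 and −63675 bp from the MANE start in *ETS1* KD libraries and at 41 and −64668 bp in TWEAK-treated control libraries. Without centring, 14 of the 21 members and 3368 of the 5497 genes lay below. The strongest Pol II peak of *SLC3A2* lay at −25060 to −25040 bp from its MANE start in the 8 libraries, at another annotated start.

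With TWEAK, both control libraries lay above both untreated libraries on the centred scale at 5 of the 21 members (*MTHFD2*, *SESN2*, *DDIT4*, *SLC7A5* and *STC2*) and below them at 2 (*SLC1A4* and *NUPR1*), which held for 20.9% and 16.2% of all genes. In *NFKB2* KD cells, both libraries lay below both TWEAK-treated control libraries at 4 members (*ATF4*, *ATF5*, *MTHFD2* and *SLC7A5*) and above them at 3 (*DDIT4*, *SLC1A4* and *NUPR1*), which held for 21.7% and 17.7% of all genes. At *DDIT4* the summit in *NFKB2* KD replicate 2 lay 3153 bp downstream of the MANE start, against 35 to 104 bp in the other libraries, so the value there is not of the same position.

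**Figure D4:**
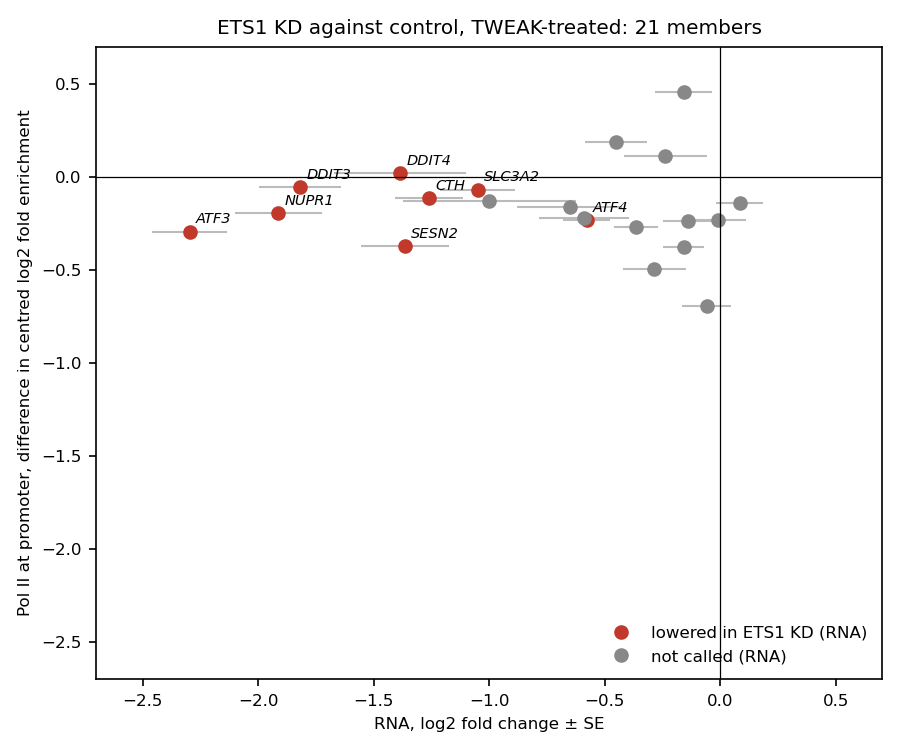
RNA log2 fold change (x axis, bars show the SE) against the difference in centred log2 Pol II fold enrichment at the promoter (y axis, same scale) between *ETS1* KD and TWEAK-treated control cells, for the 21 members with a Pol II peak in all 8 libraries. The 8 lowered members (red) spread from −2.30 to −0.58 in RNA and from −0.37 to 0.02 in Pol II.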

How the data were processed

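Samples were grouped by their labels. For RNA-seq, the authors used Trimmomatic, STAR on hg38 and featureCounts, and the deposited values are raw counts per gene. CPM (on TMM-scaled library sizes) and TPM were computed from them. The labels and the study's methods name different library kits, and the strand setting and tool versions are not given in the sources used here, so reads of overlapping antisense genes may be included. No value column was left unused (0). For ChIP-seq, the authors mapped reads with Bowtie2 and called peaks per library with MACS2. The deposited fold enrichment ratio and −log10 p- and q-values are the authors' and were used to describe, rank and filter peaks. The 3 input samples were not analysed here.

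Members and lists were chosen with earlier results of these data known. Gene identifiers were matched to GENCODE release 44 (62625 of 62649 distinct identifiers). Counts of the 16879 genes kept by filterByExpr were tested with edgeR 4.0.16 in R 4.3.3 (TMM, quasi-likelihood F-test, 4 groups in 1 model, Benjamini-Hochberg adjustment over all genes, threshold 0.05). SE was the log2 fold change over the root of F. DESeq2 1.42.0 was an alternative, and the others concerned normalisation, filter, GC content, blocks and left-out libraries. Values in every library were given for *ATF4*, *ATF3*, *DDIT3* and members past the threshold in any contrast, and for others singled out after their values were seen. From the other lists at most 4 called genes per contrast were named. Peaks sharing at least 1 bp were merged. The centring of Pol II was chosen after seeing the data. Code was checked on simulated data.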

Additional observations from a re-analysis of the deposited data

Results flagged for a closer look

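The effects of *ETS1* KD and *NFKB2* KD, each against TWEAK-treated control cells, differed for 10 members by the direct comparison of the knockdowns in edgeR at an adjusted p under 0.05, and each is given here for the difference between those effects. The effect of *ETS1* KD was lower than that of *NFKB2* KD by a log2 difference of −1.93 for *ATF3*, −1.78 for *NUPR1*, −1.73 for *ASNS*, −1.55 for *TRIB3*, −1.47 for *DDIT4*, −1.36 for *DDIT3*, −1.30 for *CHAC1*, −1.11 for *CTH*, −1.10 for *SESN2* and −0.43 for *ATF4*. The call of *ATF4* was kept in only 1 of the 6 fits that left out 1 library and in 5 of the 10 other alternatives. Those of *ASNS*, *DDIT4* and *SESN2* were also not kept in every alternative. The genes were chosen with the *ETS1* KD values known, so these differences are not independent of that choice. Groups of 3 were not examined for single outlying libraries by a fixed rule.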

How the results depend on the processing

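For the members lowered in *ETS1* KD cells against control cells, 8 of 11 were called in every alternative, the exceptions being *ATF4*, *ASNS* and *DDIT4*, and the count ran from 8 to 10 with 1 library left out and from 11 to 15 otherwise. Against *NFKB2* KD cells, 6 of 10 were called in every alternative, the exceptions being *ATF4*, *ASNS*, *DDIT4* and *SESN2*, and the count ran from 6 (without *ETS1* KD replicate 3) to 11 with 1 library left out. No fold change of these members changed sign. Same-numbered replicates correlated between −0.304 and 0.492 in their deviations from the group means, and differently numbered ones between −0.56 and 0.488. The same-numbered pairs were at 0.407, 0.095 and 0.24 in the *NFKB2* KD comparison and at −0.186, −0.304 and 0.354 in the *ETS1* KD comparison. These values do not settle whether same-numbered libraries were paired, and the main test used no pairing. With the replicate block, TWEAK raised 3 members rather than 0, and 12 members fell in the *ETS1* KD comparison. The members raised by TWEAK numbered 3 with the block and GC correction, 2 with GC correction alone, 2 without a filter, 4 in DESeq2, 1 under the thresholds of the study's methods in edgeR or DESeq2, 0 to 1 with 1 library left out, and 5 without both libraries that stood apart. Of the alternatives for single called members, 300 kept the call and 36, all for *ATF4*, *ASNS*, *DDIT4* or *SESN2*, kept the direction but not the call, and the cause was not tested.

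Members with a promoter site changed with the rule. With a peak in either replicate, p52 had 8 with TWEAK, 3 with guide 1 and 5 with guide 2, and ETS1 8 without and 9 with TWEAK. With 1 replicate left out, p52 with TWEAK ranged from 2 to 8, guide 1 from 0 to 3, ETS1 without TWEAK from 5 to 8 and with TWEAK from 5 to 8. With MANE starts only, ETS1 had 3 without and 2 with TWEAK, and with a −log10 q-value of at least 5 it had 3 without. With at least 50% of the peak inside, p52 with TWEAK had 1, ETS1 without TWEAK 3, and Pol II 12 without TWEAK, 16 with TWEAK and 13 in *ETS1* KD cells. Without centring of Pol II, the members below in both libraries numbered 0 with TWEAK, 14 with *ETS1* KD and 9 with *NFKB2* KD, where 137, 3368 and 2806 of the 5497 genes lay below, and those above numbered 4, 0 and 0, where 946, 111 and 72 genes lay above. Fewer libraries and peaks were used in the left-out settings by construction, and the unknown depth of the ChIP-seq libraries limits what a missing peak shows.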
